A study of Mus musculus with 19 samples.

Results

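The genes described here build the neuronal cytoskeleton and the synapse: stathmins, tubulin and microtubule-associated proteins, neurofilaments, the machinery of vesicle release, neuronal adhesion molecules and neuronal RNA-binding proteins. They were taken from a list of 37 symbols through the annotation of the array's probe sets, and the probe set of a gene that was brightest on average across the 19 arrays stood for it. Of the 37, 36 had such a probe set and all 36 passed the filter on low signal, out of 18193 genes on the array and 12148 genes tested. The antisense transcript Grin1os was matched to no probe set with a single symbol and is not analysed here. Affymetrix Mouse430+2 arrays gave the expression of 5 groups of cells from the cerebellum of C57BL/6 mice, taken without culture or treatment. The NEP tumor group held 4 arrays of tumors that arose in Nestin-CreERT2/Ptch1C/C mice. The GNP tumor group held 4 arrays of tumors that arose in Math1-CreERT2/Ptch1C/C mice. In both, the promoter that drives CreERT2, a Cre recombinase that tamoxifen activates, sets which cells lose Ptch1, the receptor that restrains Hedgehog signalling. The NEP group held 4 arrays of progenitors positive for Nestin, an intermediate filament protein of neural precursors. The GNP group held 4 arrays of granule neuron progenitors, positive for Math1, which is now called Atoh1. The NSC group held 3 arrays of CD133-positive, lineage-negative cerebellar cells. The labels give no age, sex, pooling or time of Cre activation, and nothing says that the arrays of a group came from separate animals, so p-values measure only the spread between these arrays.

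A neuron that leaves the cell cycle extends an axon, and it does so with a microtubule lattice whose growth is set by stathmins, doublecortin and microtubule-associated proteins and later braced by neurofilaments. Release of transmitter uses a core of SNARE proteins (Snap25, Vamp2, syntaxin), the calcium-sensing synaptotagmins and proteins that hold vesicles near the membrane, while contactins, L1 family proteins, neurexins and neuroligins join axons and synapses to their partners. In the cerebellum these genes turn on as granule neurons mature, and the Hu and Rbfox proteins process their transcripts.

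The signals are on a log2 scale, so that a difference of 1 is a doubling of array signal, and signals of different probe sets are not set against each other. The mean of all probe sets was equal on every array. The NEP and GNP arrays carry 1 number in their titles and the NSC and tumor arrays another, and what the number stands for is not given in the sources used here. Arrays that share it are called a title set. Poly-A spike-in RNAs averaged 6.83 ± 0.29 on the 11 arrays of the set with NSCs and tumors and 8.94 ± 0.23 on the 8 of the set with NEPs and GNPs (SD), a gap of 2.11. For NSCs against NEPs or GNPs, and for a tumor against its progenitor, title set and group cannot be told apart. NEPs and GNPs share a title set, and so do both tumors. The NEP arrays also differ among themselves. Each NEP result is therefore given for arrays 1 and 2 and for arrays 3 and 4 where that matters. Nes, which encodes Nestin, read 5.78, 5.65, 6.06 and 6.01 on NEP arrays 1 to 4, against 3.23 to 4.01 on GNP arrays. Atoh1 read 2.85, 2.38, 5.67 and 4.9 on the same NEP arrays, against 8.77 to 8.96 on GNP arrays. On NSC arrays it read 8.92 to 8.94, within the range of the GNPs. Prom1, which encodes CD133, was as high on NEP arrays (8.17 to 8.85) as on NSC arrays (7.95 to 8.17) or higher. Ptch1 itself read 11.39 to 11.59 in NEP tumors and 11.18 to 11.24 in GNP tumors, against 10.27 to 10.9 in NEPs and 10.17 to 10.38 in GNPs, and whether its probe set lies in the deleted part was not examined.

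Promoter sequence was read from RefSeq (mouse build GRCm38.p6), which held 27 of the 36 genes with 42 transcription starts. The 250 bases before each start were searched on both strands for the core of RE1, the element that the repressor REST binds, and for the E-box that neurogenin and NeuroD proteins bind (CAGATG), since REST and these factors changed between the groups. The RE1 core was in 17 of 32851 promoters of all genes, or 0.0517%, and among the 42 only in that of Syn1. The E-box was in 14.4% of all promoters and in 8 of the 42, or 19%, which belong to Elavl4, L1cam, Map1b, Stmn3 and Syn2. No match of one motif overlapped a match of the other. The windows around the RE1 core of Syn1 (chrX:20921109-20921168, minus strand) and the E-boxes of Stmn3 (chr2:181314545-181314600, minus), Map1b (chr13:99516785-99516840, minus), L1cam (chrX:73880894-73880949, minus) and Syn2 (chr6:115238859-115238914, plus) are shown because these genes are described below. Capitals mark the motif, which in Syn2 lies on the other strand.
Syn1: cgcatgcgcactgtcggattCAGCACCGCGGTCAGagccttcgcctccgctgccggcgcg
Stmn3: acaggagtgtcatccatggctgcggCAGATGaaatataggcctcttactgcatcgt
Map1b: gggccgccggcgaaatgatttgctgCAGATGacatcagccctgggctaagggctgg
L1cam: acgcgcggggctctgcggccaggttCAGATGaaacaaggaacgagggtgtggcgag
Syn2: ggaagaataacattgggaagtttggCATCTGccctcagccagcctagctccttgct

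By group mean, 15 of the 36 genes were highest in GNPs, 7 in NEPs, 7 in GNP tumors, 6 in NEP tumors and 1 in NSCs. The lowest group was the NEPs for 22 genes, the NSCs for 5, GNP tumors for 4, NEP tumors for 3 and GNPs for 2. No group mean of any of the genes lay below the median of its arrays. Those medians were only 2.44 to 2.57, and some signals lay little above them. Rims1 averaged 2.71 in NEPs and Nefl 3.06 in GNP tumors, and Cntn2 read 3.06 and 3.18 on NEP arrays 1 and 2. Fold sizes that rest on such low signals are less certain. The median over the 36 genes was 7.74, 7.76, 8.02 and 8.08 on NEP tumor arrays and 7.99 to 8.22 on GNP tumor arrays. It was 6.23, 6.4, 7.78 and 7.14 on NEP arrays, 8.6 to 8.7 on GNP arrays and 7.37 to 7.38 on NSC arrays. The NEP arrays were the only group in which this median spread by more than 1.

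**Figure D1:**
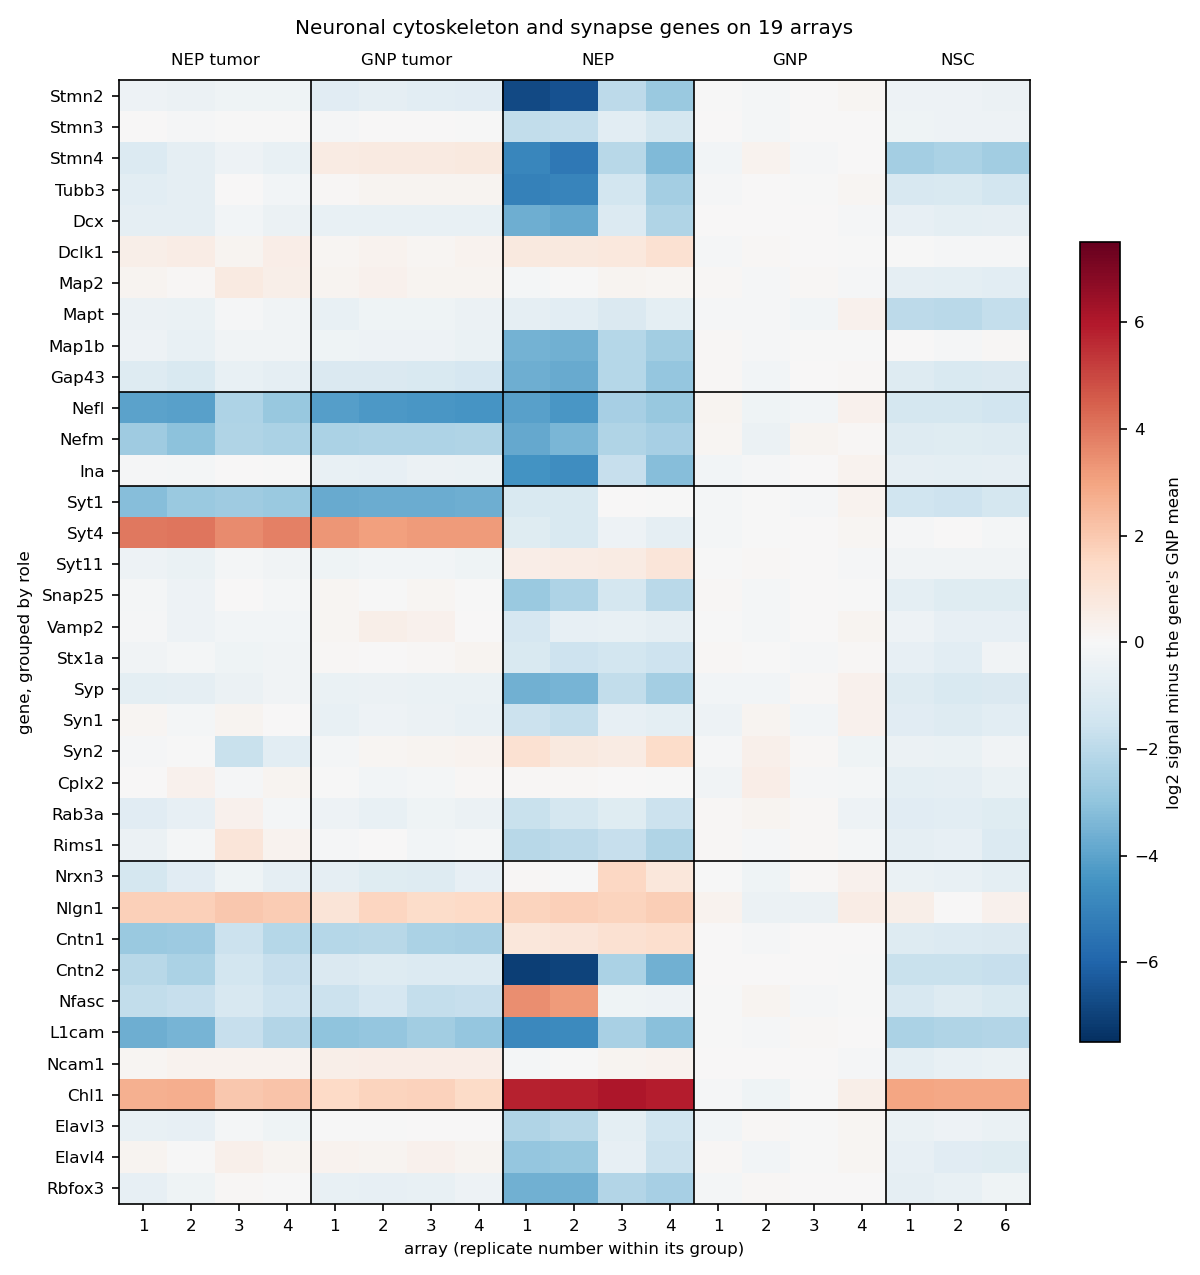
Log2 signal of the 36 genes (down the page, grouped by role) on each of the 19 arrays (across, by group), with each gene's mean over the 4 GNP arrays subtracted. NEP arrays 1 and 2 are the darkest blue for Stmn2 and Cntn2, all 4 NEP arrays are darkest red for Chl1, and all 8 tumor arrays are red for Syt4.

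NEPs had less signal than GNPs for most of these genes. In the comparison of NEPs with GNPs, 25 of the 36 were lower in NEPs, 6 were higher and 5 did not pass the test (limma, all 19 arrays in 1 fit, adjusted p below 0.05), where 39.9% of all genes tested were lower, 29.6% higher and 69.5% either. The median difference was -1.41 over the 36 genes and -0.11 over all genes tested. In 24 of the 25 lower genes every NEP array lay below every GNP array, and in all 6 higher genes every NEP array lay above. How often arrays separated in this way over all genes tested was not counted. Fewer cells of a type and less RNA per cell cannot be told apart in these bulk samples.

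The cytoskeleton of growing axons showed 8 of its 10 genes lower in NEPs and 1 higher, with a median difference of -2.82. Stmn2, a stathmin that frees tubulin in growth cones, read 4.33, 4.57, 9.1 and 8.31 on NEP arrays 1 to 4, against 11.07, 10.92, 11.09 and 11.26 on GNP arrays. All NEP arrays were below all GNP arrays, arrays 1 and 2 by far more than 3 and 4. The difference was -4.51 ± 0.75 (SE), 22.8-fold, with a limma adjusted p of 4.99e-05. Stmn4, a related stathmin, read 3.55, 3.12, 6.37 and 5.14 on NEP arrays, against 8.26 to 8.73 on GNP arrays, a difference of -3.92 ± 0.46 (adjusted p = 1.19e-06). Tubb3, the neuronal beta tubulin, read 5.17, 5.27, 8.81 and 7.65 on NEP arrays, against 10.1 to 10.36 on GNP arrays (-3.49 ± 0.56, adjusted p = 3.33e-05). Dcx, the doublecortin of migrating neurons, read 6.59, 6.42, 9.25 and 8 on NEP arrays, against 10.16 to 10.3 on GNP arrays (-2.68 ± 0.41, adjusted p = 1.98e-05). In these genes NEP array 3 came nearest to the GNPs and array 4 next. Map1b and Mapt, microtubule-associated proteins of axons, Gap43, a growth cone protein, and Stmn3 were also lower, by 2.97, 0.83, 3.12 and 1.44 on the log2 scale. Their differences were -2.36, -0.91, -2.52 and -1.05 with NEP arrays 3 and 4 alone. Map2, the microtubule-associated protein of dendrites, averaged 10.37 in NEPs and 10.35 in GNPs and did not pass the test. Dclk1, a kinase related to doublecortin, ran the other way at 10.66, 10.66, 10.68 and 11.04 on NEP arrays, against 9.85 to 9.97 on GNP arrays. Its difference was 0.85 ± 0.087 (adjusted p = 2.13e-07), but 2 of its other probe sets were lower in NEPs, by 1.14 and 1.12.

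All 3 genes of the neurofilament group were lower in NEPs. Ina, alpha-internexin, read 5.02, 4.87, 7.78 and 6.29 on NEP arrays, against 9.31 to 9.8 on GNP arrays (-3.52 ± 0.41, adjusted p = 1.17e-06). Nefl, the light neurofilament, read 3.33, 3, 4.88 and 4.52 on NEP arrays, against 7.03 to 7.71 on GNP arrays (-3.45 ± 0.4, adjusted p = 8.6e-07). Nefm, the medium chain, was lower by 3 ± 0.27 (adjusted p = 4.93e-08). Again NEP arrays 3 and 4 stood between arrays 1 and 2 and the GNPs. The 3 RNA-binding proteins were lower too, by 1.63 for Elavl3, 2 for Elavl4 and 2.99 for Rbfox3, the gene of the neuronal nuclear antigen NeuN. Their differences were -1.11, -1.12 and -2.35 with NEP arrays 3 and 4 alone.

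Of the 12 genes of vesicles and release, 9 were lower in NEPs, 2 higher and 1 not called, with a median difference of -0.98. Syp, synaptophysin of the vesicle membrane, read 3.73, 3.82, 5.49 and 4.74 on NEP arrays, against 7.08 to 7.63 on GNP arrays, and differed by -2.86 ± 0.27 (adjusted p = 9.49e-08). Among the SNARE genes, Snap25 was lower by 2.1, Stx1a by 1.39 and Vamp2 by 0.76. Rims1, a scaffold of the active zone, was lower by 2.02, Rab3a, a vesicle GTPase, by 1.38, Syn1 by 1.2 and Syt4 by 0.76. Syt1, the calcium sensor of fast release, was lower by 0.58 ± 0.23 (adjusted p = 0.0309), a call that rests on arrays 1 and 2. It read 7.01 on both, below the 8.05 to 8.41 of the GNP arrays, and 8.19 and 8.16 on arrays 3 and 4, within that range. Without NEP array 1 or without array 2 the difference was -0.38 with an adjusted p of 0.126, without GNP array 4 it was -0.5 (0.0837), and with NEP arrays 3 and 4 alone it was 0.01. Syn2, a synapsin, was higher at 8.29, 7.84, 7.75 and 8.48 on NEP arrays, against 6.79 to 7.53 on GNP arrays (0.96 ± 0.28, adjusted p = 0.00614). Syt11, a synaptotagmin that does not bind calcium, was higher by 0.64 ± 0.089 (adjusted p = 7.85e-06). Cplx2, a complexin, averaged 8.76 in NEPs and 8.7 in GNPs and was not called.

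The 8 adhesion genes divided, with 3 higher in NEPs, 2 lower and 3 not called. Chl1, a close homolog of L1, read 9.64, 9.69, 9.92 and 9.76 on NEP arrays, against 3.76, 3.54, 3.82 and 4.29 on GNP arrays. The groups were far apart and both pairs of NEP arrays were alike, with a difference of 5.9 ± 0.16, 59.7-fold (adjusted p = 4.46e-15). Nlgn1, a neuroligin, was higher by 1.73 ± 0.19 (adjusted p = 5.92e-07) and Cntn1, a contactin, by 1.04 ± 0.18 (adjusted p = 0.000101). Cntn2, the contactin also called TAG-1 that marks young granule neurons, read 3.06, 3.18, 7.77 and 6.51 on NEP arrays, against 10.1 to 10.19 on GNP arrays. It was lower by 5.01 ± 0.73, 32.3-fold (adjusted p = 1.23e-05). L1cam, the adhesion molecule L1, was lower by 3.8 ± 0.46 (adjusted p = 1.76e-06). It read 4.41, 4.5, 6.81 and 6.16 on NEP arrays, against 9.19 to 9.36 on GNP arrays. Nfasc, neurofascin, did not pass the test (1.48 ± 0.65, adjusted p = 0.0517), and its NEP arrays lay on both sides of the GNPs. It read 8.75 and 8.47 on NEP arrays 1 and 2 and 4.97 and 4.9 on arrays 3 and 4, against 5.18 to 5.49 on GNP arrays. Without NEP array 3 or without array 4 it was called higher, by 2.08 (adjusted p = 0.00553) and 2.11 (0.00468). Nrxn3, a neurexin, and Ncam1 were not called, at 0.61 and 0.07. Nrxn3 was called higher without NEP array 1 (0.8, adjusted p = 0.0198), array 2 (0.82, 0.0147) or GNP array 4 (0.71, 0.046). Both were called higher by limma with NEP arrays 3 and 4 alone (1.2, 0.000318, and 0.23, 0.0204). So were they with the mean of all probe sets of each gene (0.47, 0.0434, and 0.67, 3.48e-09).

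**Figure D2:**
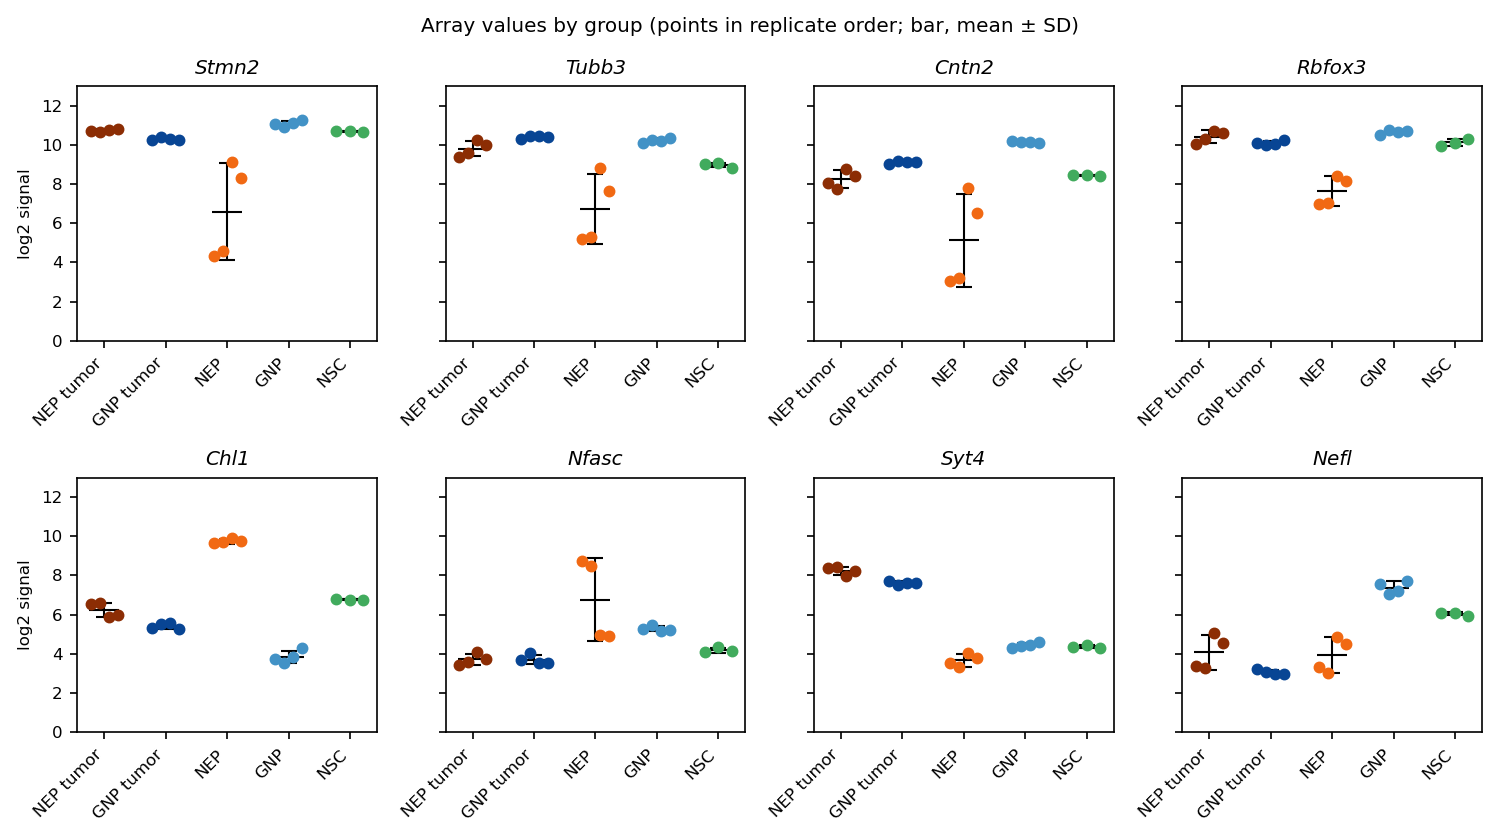
Log2 signal of 8 of the genes on every array, by group, with bars for the group mean and SD. The NEP points of Stmn2, Tubb3, Cntn2 and Nfasc fall into 2 pairs, those of Chl1 lie together above every other group, and Syt4 separates the 8 tumor arrays from the rest.

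The NEP arrays differed in pairs. In 27 of the 36 genes NEP arrays 3 and 4 were both above arrays 1 and 2, and in 2 both were below. This order of the arrays was not counted over all genes tested. The means of the pairs differed by at least 1 in 19 of the genes, 18 of them higher on arrays 3 and 4, while of all genes tested 2.17% were at least 1 higher and 7.15% at least 1 lower on arrays 3 and 4. The median difference, arrays 3 and 4 minus arrays 1 and 2, was 0.95 over the 36 genes and 0.1 over all genes tested. The pairs lay farthest apart for Stmn2 (8.71 on arrays 3 and 4, 4.45 on arrays 1 and 2), Cntn2 (7.14 and 3.12) and, with the sign turned, Nfasc (4.94 and 8.61). Over the 25 genes lower in NEPs, the median gap to the GNP mean was -3.53 on arrays 1 and 2 and -1.98 on arrays 3 and 4. With NEP arrays 3 and 4 alone, 24 of the 36 genes were lower and 8 higher than in GNPs, where 60.3% of all genes tested were called.

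**Figure D3:**
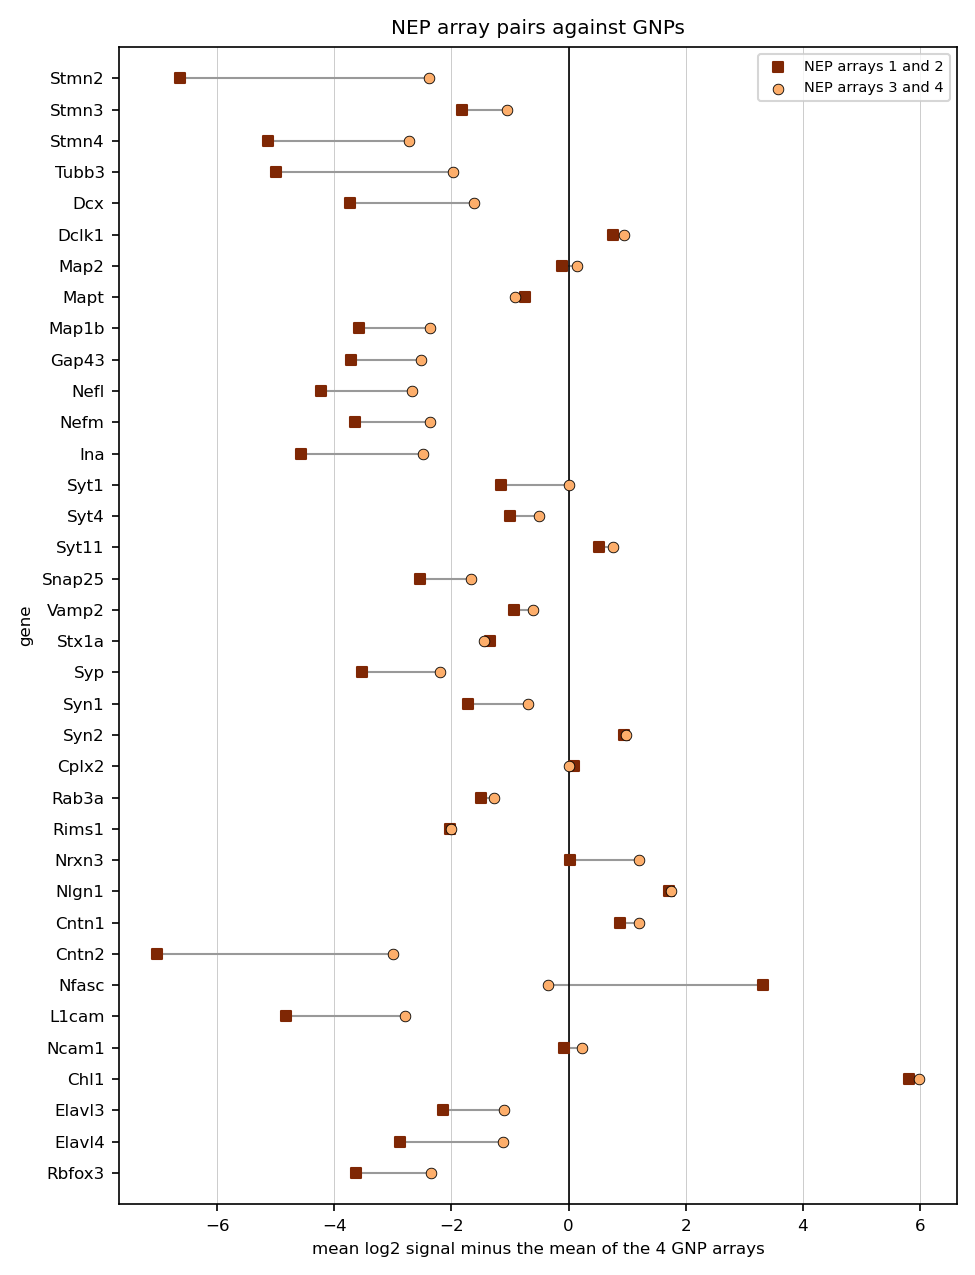
Mean log2 signal of NEP arrays 1 and 2 (squares) and of NEP arrays 3 and 4 (circles) minus the mean of the 4 GNP arrays, for each gene. For Stmn2, Stmn4, Tubb3, Cntn2 and L1cam both pairs lie left of 0 with arrays 1 and 2 farther out, while for Nfasc only arrays 1 and 2 lie right of 0.

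Markers of other cell types moved with these differences. Log2 of the summed signal of 10 microglia and macrophage markers was 12.89, 12.85, 8.24 and 5.71 on NEP arrays 1 to 4, against 5.27 to 5.37 on GNP arrays, and 9 of the 9 tested were higher in NEPs. For pericyte, fibroblast and meningeal markers it was 13.68, 13.76, 11.07 and 10.37, against 6.39 to 7.46, with 10 of 10 higher. The sums were highest on NEP arrays 1 and 2, which had the lowest signal of most neuronal genes. Csf1r, the receptor that microglia need, read 11.16, 11.12, 7.22 and 3.51 on NEP arrays, against 2.03 to 2.56 on GNP arrays. Oligodendrocyte lineage markers gave 13.26, 13.31, 11.65 and 11.66, against 10.15 to 10.3, with 7 of 8 tested higher. Endothelial markers (9 of 9 tested higher) gave 9.92, 9.79, 7.68 and 8.53, against 5.59 to 6.52. In the astrocyte and Bergmann glia list 9 of 9 tested were higher, with sums of 13.67 to 13.95 on NEP arrays, against 10.27 to 10.4 on GNP arrays. In the neural stem and radial glia list it was 10 of 10 (13.72 to 14.17, against 10.84 to 11.12), and in the GABAergic and Purkinje list 4 of 5 tested (10.02 to 10.61, against 5.32 to 5.51). Of the granule neuron progenitor markers 9 of 10 were lower, with sums of 12.44, 12.55, 13.08 and 13.08 on NEP arrays, against 13.91 to 13.97 on GNP arrays. The brightest probe sets of the other lists averaged 12.16 for Vim, 10.81 for Slc1a2, 9.91 for Pdgfra, 10.15 for Ptf1a, 10.6 for Col3a1, 8.1 for Cldn5 and 11.85 for Zic1 in NEPs. In GNPs they averaged 10.43 for Vim, 8.96 for Slc1a2, 9.96 for Pdgfra, 2.07 for Ptf1a, 3.99 for Col3a1, 4.2 for Cldn5 and 11.99 for Zic1. The part of these cell types in the results was not tested.

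Lists of further genes of the same pathways were examined beside them. Of 22 further cytoskeleton genes tested, 12 were lower in NEPs and 2 higher (63.6% called, against 69.5% of all genes tested). Their median was -0.46. The axonal kinesins Kif5a and Kif5c were lower by 2.72 and 2.46 and Crmp1, a collapsin response mediator, by 2.51, while its relative Dpysl3 was higher by 0.83 and Dclk2 by 1.71. Of 27 further genes of the release machinery, 18 were lower and 3 higher (77.8% called, median -0.92). Slc17a6, the vesicular glutamate transporter VGLUT2, averaged 3.97 ± 2.2 in NEPs and 8.39 ± 0.13 in GNPs (SD, n = 4 each), and Unc13a and Cplx1 were lower by 2.9 and 2.79. The priming factor Unc13b was higher by 2.08, Sypl, a relative of synaptophysin found outside neurons too, by 1.44, and the active zone gene Erc2 by 0.7. Among 18 further adhesion and postsynaptic genes, 10 were higher and 6 lower (88.9% called, median 0.4). Nlgn3 was higher by 2.45, Lrrtm1 by 1.91, where the GNP mean lay under the array median, and Cntnap4 by 1.83. The scaffold gene Dlg2 was lower by 3.49, with its NEP mean under the array median, Cntn6 by 1.8 and Camk2b by 1.23.

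Of 23 regulators of neuronal genes, 17 were lower and 4 higher in NEPs (91.3% called, against 69.5% of all genes tested). Their median was -1.09. Neurog2 and Neurog1, factors that start neuronal differentiation, averaged 8.13 ± 0.26 and 6.8 ± 0.68 in NEPs, against 1.9 ± 0.1 and 1.69 ± 0.07 in GNPs, where both lay under the array median. Rest, which represses neuronal genes outside neurons, averaged 6.21 ± 0.16 in NEPs and 3.19 ± 0.3 in GNPs, a difference of 3.02 ± 0.15 (adjusted p = 1.52e-11). Neurod1, Neurod6 and Nhlh1, factors of later neuronal differentiation, were lower by 2.88, 3.77 and 3.71. Neurod1 read 7.96, 8.22, 10.94 and 10.32 on NEP arrays 1 to 4, against 12.22 to 12.26 on GNP arrays.

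NEPs were also below NSCs for most of the genes, but less uniformly. In NEPs, 20 of the 36 were lower than in NSCs, 13 higher and 3 not called (limma), where 27.6% of all genes tested were lower, 30.9% higher and 58.4% either. The median difference was -0.96 over the 36 genes and 0.02 over all genes. The lower genes were led by Stmn2 (-4.11 ± 0.81, adjusted p = 0.000357), Cntn2 (-3.31 ± 0.79, 0.00173), Map1b (-3 ± 0.25, 2.79e-08), Ina (-2.84 ± 0.45, 4.27e-05) and Rbfox3 (-2.48 ± 0.28, 9.86e-07). Map1b read 6.72, 6.7, 8.16 and 7.7 on NEP arrays, against 10.34, 10.21 and 10.39 on NSC arrays, with no overlap. By role, 7 of 10 genes of the axon cytoskeleton, 3 of 3 of the neurofilament group, 5 of 12 release genes, 2 of 8 adhesion genes and 3 of 3 RNA-binding proteins were lower. NEP arrays 3 and 4 came close to the NSCs for several. With them alone 17 genes were lower and 13 higher, where 52.8% of all genes tested were called. The median was then -0.44, and Stmn4 (-0.2, adjusted p = 0.525), L1cam (-0.52, 0.293) and Elavl4 (-0.32, 0.175) were no longer called. The leading genes stayed lower, at -1.98 for Stmn2, -1.3 for Cntn2, -2.39 for Map1b, -1.8 for Ina and -1.84 for Rbfox3. Single arrays ended the calls of Stmn4 (without NEP array 1 or 2, adjusted p = 0.0769 and 0.0791, or without NSC array 1 or 2, 0.0541 and 0.0645) and L1cam (without NEP array 1 or 2, 0.0516 and 0.0508). Rab3a gained a call without NEP array 3 (-0.69, 0.0134). With only these groups in the fit 16 were lower and 11 higher, where 47.3% of all genes tested were called. That fit ended the calls of Cntn2, Tubb3, Stmn4, L1cam, Elavl4, Syt1 and Nfasc (limma adjusted p 0.0554 to 0.16). Rab3a gained a call in it (0.0476).

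The 13 genes higher in NEPs than in NSCs included 6 of the 8 adhesion genes. Chl1 was higher by 2.97 ± 0.17 (adjusted p = 3.12e-10), Cntn1 by 2.05 ± 0.2 (1.96e-07) and Nlgn1 by 1.46 ± 0.21 (1.44e-05). Nfasc was higher by 2.58 ± 0.7 (0.00473), but by 0.75 (0.00196) with NEP arrays 3 and 4 alone, Nrxn3 by 1.22 ± 0.3 (0.00214) and Ncam1 by 0.66 ± 0.088 (7.62e-06). Chl1 arrays did not overlap, at 9.64 to 9.92 in NEPs and 6.75 to 6.82 in NSCs. The other 7 were Syn2 (1.35), Mapt (1.09), Dclk1 (0.9), Syt11 (0.89), Syt1 (0.88), Map2 (0.75) and Cplx2 (0.7). For Syt1 and Ncam1 another probe set was called lower in NEPs, by 0.72 and 0.63. In the marker lists, 8 of 9 tested astrocyte genes, 9 of 10 stem and radial glia genes and 6 of 8 oligodendrocyte lineage genes were higher in NEPs than in NSCs, and 9 of 10 granule progenitor genes were lower. The summed pericyte markers read 12.07 to 12.09 on NSC arrays, between the NEP pairs.

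**Figure D4:**
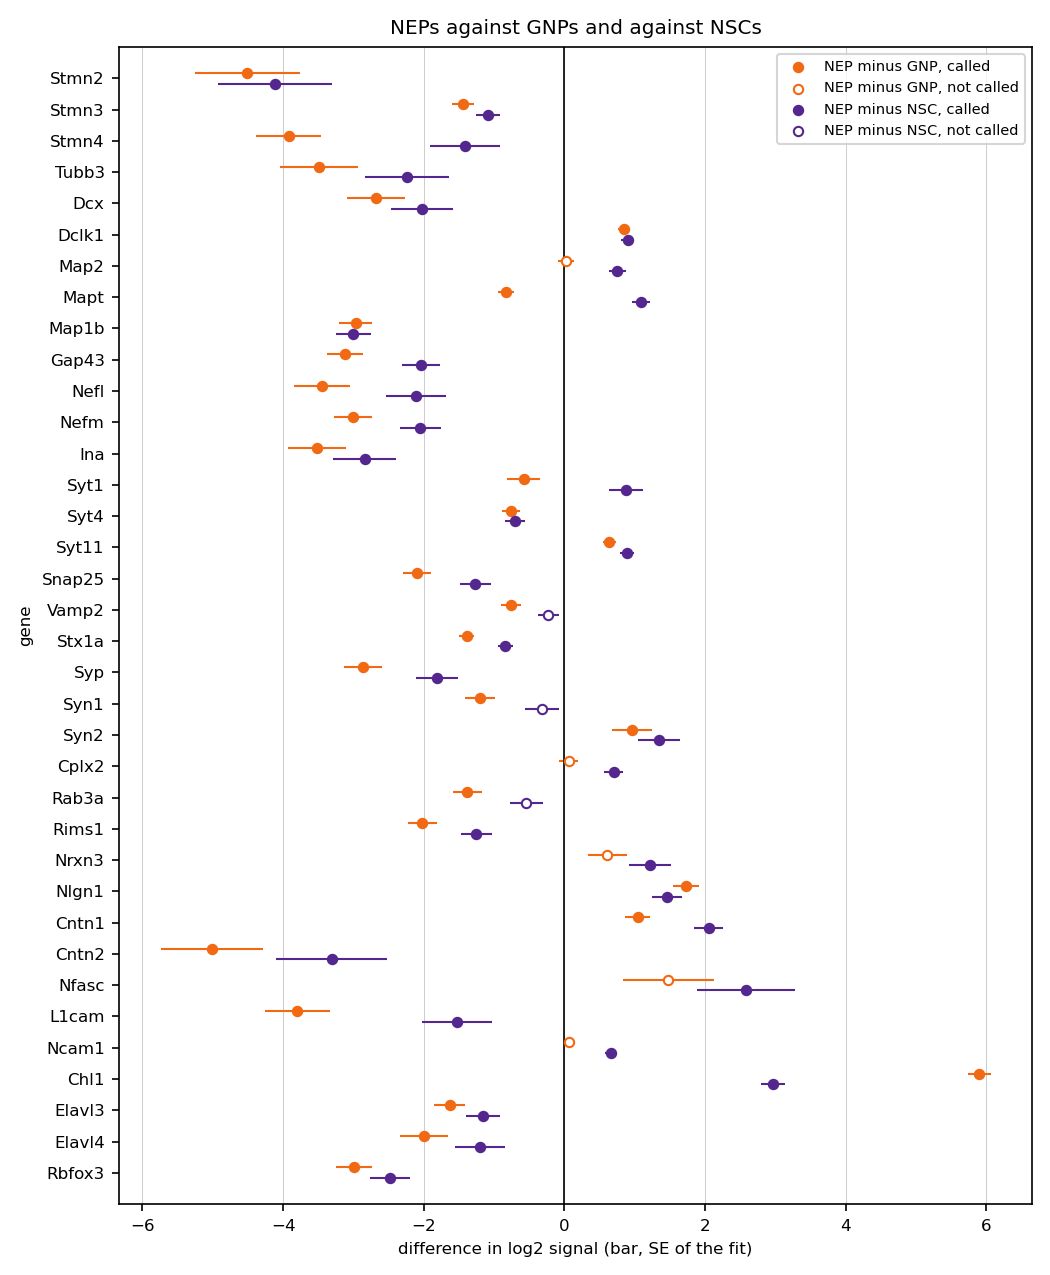
Difference in log2 signal for each gene, NEP minus GNP and NEP minus NSC, with the SE of the limma fit; filled points passed an adjusted p of 0.05. Chl1 lies farthest right in both comparisons and Stmn2 and Cntn2 farthest left.

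GNPs were above NSCs for 19 of the 36 genes, below for 1 and not called for 16, where 23.2% of all genes tested were higher, 13.1% lower and 36.3% either. The median difference was 0.71 over the 36 genes and 0.06 over all genes. This fit shares each gene's variance with the NEP arrays, whose spread was wide, and with GNP and NSC arrays alone 30 of the 36 were higher (27.1% of all genes) and 1 lower (17.7%, with 44.8% either way). Cntn2 shows the difference between the fits. It averaged 10.14 ± 0.037 in GNPs and 8.44 ± 0.033 in NSCs, 1.7 apart, with an adjusted p of 0.101 in the fit of all groups and 2.52e-07 in the fit of these groups. Stmn4 read 8.26, 8.73, 8.41 and 8.48 on GNP arrays, against 5.95, 6.08 and 5.84 on NSC arrays (2.51 ± 0.5, adjusted p = 0.000908). L1cam was higher by 2.27 ± 0.5 (0.00204), Mapt by 1.92 ± 0.13 (1.27e-08), Syt1 by 1.45 ± 0.24 (0.000215) and Nefl by 1.34 ± 0.43 (0.0211). In the fit of all groups the release machinery had the largest share of a role called, with 10 of 12 genes higher. With GNP and NSC arrays alone all genes of the neurofilament group and all RNA-binding proteins were higher, while Syt4 and Syn2 were not called. The 1 lower gene was Chl1, at 3.54 to 4.29 on GNP arrays and 6.75 to 6.82 on NSC arrays (-2.92 ± 0.17, adjusted p = 2e-09). The call of Nefl was lost without GNP array 4 (adjusted p = 0.0518) or any NSC array (0.0518 to 0.0621), those of Nefm (0.0509) and Rims1 (0.0689) without NSC array 6, and that of Syt11 whichever single array was left out (0.0511 to 0.108). Markers of other cells stood apart in the same arrays. In GNPs, 8 of 10 pericyte, 9 of 9 tested endothelial, 9 of 9 tested astrocyte and 8 of 10 stem and radial glia markers were lower, as were 4 of 8 tested oligodendrocyte lineage markers. Endothelial sums were 5.59 to 6.52 on GNP arrays, against 9.48 to 9.66 on NSC arrays, and astrocyte sums 10.27 to 10.4, against 11.78 to 11.87. Stem and radial glia sums were 10.84 to 11.12 on GNP arrays, against 12.16 to 12.18 on NSC arrays. Granule progenitor markers were close, with 2 of 10 higher in GNPs, 0 lower and a median difference of 0.09. Their sums were 13.91 to 13.97 on GNP arrays and 13.81 to 13.89 on NSC arrays. The part of all these cell types in the result was not tested.

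Syt1, Syt4 and Chl1 were higher in NEP tumors than in GNP tumors, while the share of the 36 genes called was near that of all genes in the fit of all groups. In NEP tumors, 3 of the 36 were higher than in GNP tumors, 4 lower and 29 not called, where 15.5% of all genes tested were higher, 8.1% lower and 23.6% either. The median difference was 0.03 over the 36 genes and 0.05 over all genes, and it was -0.07 without NEP tumor array 3. With the tumor arrays alone, 7 were higher (19.3% of all genes) and 7 lower (11.5%, with 30.8% either way). The fit of all groups shares each gene's variance with the widely spread NEP arrays. Called only without them were Stmn2 (0.42, limma adjusted p = 0.00233), Ina (0.49, 0.000997), Syn1 and Nlgn1, higher. Cntn2 (-0.85, 0.00867), Tubb3 and Elavl3 were likewise called lower. Syt1 read 4.99, 5.41, 5.53 and 5.41 on NEP tumor arrays, against 4.4, 4.47, 4.43 and 4.49 on GNP tumor arrays, with no overlap (0.89 ± 0.23, adjusted p = 0.00957). Chl1 read 6.53, 6.58, 5.89 and 6, against 5.34, 5.54, 5.6 and 5.29 (0.8 ± 0.16, 0.00179), and Syt4 was higher by 0.63 ± 0.13 (0.00302). Among the lower genes, Stmn4 read 7.44, 7.77, 8.09 and 7.94 on NEP tumor arrays, against 9.07 to 9.19 on GNP tumor arrays. Its arrays did not overlap, and its difference was -1.33 ± 0.46 (adjusted p = 0.0468) in the fit of all groups. In that fit the adjusted p was above 0.05 whichever single array was left out (0.0562 to 0.115). It was 0.00013 by limma with the tumor arrays alone. Vamp2 (-0.44, adjusted p = 0.0284), Stx1a (-0.33, 0.0305) and Ncam1 (-0.27, 0.0233) lost their calls without NEP tumor arrays 2 or 4, without arrays 1, 3 or 4, and without array 1, and each also without some of the GNP tumor arrays (adjusted p 0.0503 to 0.0915). Another probe set of Ncam1 was called higher, by 1.06. Calls were gained for Nlgn1 without GNP tumor array 2 (0.63, adjusted p = 0.0454), for Dclk1 without NEP tumor array 3 (0.29, 0.0227), and without NEP tumor array 1 or 2 for Nefl (1.25, 0.0456, and 1.27, 0.0367) and Syn2 (-0.92, 0.0355, and -0.94, 0.0272).

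The first pair of NEP tumor arrays differed from the second as well. Arrays 3 and 4 were both above arrays 1 and 2 in 25 of the 36 genes and both below in 3, an order not counted over all genes tested. The median difference was 0.28 over the 36 genes, against -0.02 over all genes tested. L1cam averaged 7.28 on arrays 3 and 4 and 5.7 on arrays 1 and 2, and Nefl 4.81 and 3.34, both over 1 apart, while Syn2 was lower on arrays 3 and 4 (5.9 and 7.08). Of all genes tested, 1.35% were at least 1 higher and 0.461% at least 1 lower on arrays 3 and 4. Log2 sums of microglia markers were 7.48, 7.52, 9.04 and 8.43 on NEP tumor arrays, against 9.03 to 9.21 on GNP tumor arrays, and those of endothelial markers 6.59, 6.59, 8.14 and 7.77, against 6.71 to 7, with 0 of 9 of either list called between the tumors. Other lists did differ. In NEP tumors 4 of 10 stem and radial glia markers were higher and 1 lower, and 1 of 9 tested astrocyte markers was higher and 3 lower. Higher too were 2 of 5 tested GABAergic and Purkinje, 2 of 10 granule progenitor, 1 of 8 tested oligodendrocyte lineage and 1 of 10 pericyte markers. Their part was not tested. A setting with NEP tumor arrays 3 and 4 alone was chosen after the data were seen. In it 5 of the 36 genes were higher and 1 lower than in GNP tumors, where 16.8% of all genes tested were called. Calls were lost for Syt4 (0.48, limma adjusted p = 0.0555), Stmn4 (-1.12, 0.232), Vamp2 (-0.42, 0.115), Stx1a (-0.38, 0.0654) and Ncam1 (-0.23, 0.142). They were gained for Nefl (1.75, 0.00767), Rims1 (0.67, 0.0171), Map2 (0.34, 0.0467) and, lower, Syn2 (-1.33, 0.00253).

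Of the further pathway genes, 8 of 18 adhesion and postsynaptic genes were higher in NEP tumors and 0 lower. That was 44.4% called, against 23.6% of all genes tested. Nptx1, a pentraxin that clusters glutamate receptors, averaged 5.32 ± 0.39 in NEP tumors and 2.02 ± 0.11 in GNP tumors, where it lay under the array median, a difference of 3.3 ± 0.2 (adjusted p = 1.14e-08). Cntn6 was higher by 2.27, with an SD of 1.8 over the NEP tumor arrays, and Dlg2 by 1.7. Of 27 release genes 7 were higher and 1 lower (29.6% called), led by Syt13 (0.9), Erc2 (0.83), Unc13b (0.77) and, lower, Doc2a (-0.54). Of 22 cytoskeleton genes (13.6% called), Dpysl5 (1.74) and Map7d2 (0.57) were higher and Stmn1, the stathmin of dividing cells, lower by 0.33. Of 23 regulators (13% called), Tcf4 was higher by 0.24, and Myt1 and Nova2 lower by 0.66 and 0.48.

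NEP tumors had more signal than NEPs for 22 of the 36 genes, less for 8, and 6 were not called, where 36.2% of all genes tested were higher, 32.6% lower and 68.9% either. The median was 1.11 over the 36 genes and 0.05 over all genes. Syt4, a synaptotagmin of dense-core vesicles, read 8.36, 8.42, 7.95 and 8.22 on NEP tumor arrays, against 3.55, 3.31, 4.06 and 3.78 on NEP arrays. The groups lay far apart, by 4.56 ± 0.13, 23.6-fold (limma adjusted p = 1.64e-14). Stmn2 was higher by 4.15 ± 0.75 (0.000113), with 10.63 to 10.79 on NEP tumor arrays, against 4.33 and 4.57 on NEP arrays 1 and 2 and 9.1 and 8.31 on arrays 3 and 4. Next came Ina, higher by 3.47 ± 0.41 (1.3e-06), Stmn4 by 3.27 ± 0.46 (9.23e-06) and Cntn2 by 3.12 ± 0.73 (0.00114). Much of the gap lay on NEP arrays 1 and 2. With NEP arrays 3 and 4 alone the differences were 2.02 for Stmn2 (adjusted p = 7.63e-09), 2.43 for Ina (4.55e-07), 2.06 for Stmn4 (1.62e-06), 1.11 for Cntn2 (0.00175) and 4.32 for Syt4 (6.27e-14), and 21 genes were higher and 8 lower, where 61.6% of all genes tested were called. The 8 lower genes were led by Chl1 (-3.51 ± 0.16, adjusted p = 4.72e-12), Cntn1 (-3.35 ± 0.18, 6.04e-11) and Nfasc (-3.06 ± 0.65, 0.000524, but -1.22 with NEP arrays 3 and 4 alone). Syt1 (-2.26), Syn2 (-1.6), Nrxn3 (-1.41), Syt11 (-0.96) and Dclk1 (-0.42) completed them, and for Dclk1 another probe set was called higher. Map2 (0.33, adjusted p = 0.0152) lost its call without NEP array 1 (0.0568) or NEP tumor array 3 (0.0615). L1cam (1.02, 0.0588) gained one without NEP array 3 (1.47, 0.00518) or 4 (1.26, 0.0318) or NEP tumor array 1 (1.31, 0.0248) or 2 (1.26, 0.0337), and Nefm (0.66, 0.0266) and Ncam1 (0.2, 0.0458) without NEP array 3, Ncam1 also without array 4 (0.22, 0.0269). Markers of other cells moved with this comparison. In NEP tumors, 9 of 10 pericyte markers were lower than in NEPs (log2 sums of 8.26 to 9.22, against 10.37 to 13.76) and 1 higher. Lower too were 8 of 9 tested endothelial and 2 of 9 tested microglia markers. Of 9 tested astrocyte markers 7 were lower and 1 higher, and of 10 stem and radial glia markers 8 and 1. Of 8 tested oligodendrocyte lineage markers 5 were lower and 1 higher. Of 10 granule progenitor markers 8 were higher. Their part was not tested.

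The lower genes in GNP tumors were led by Nefl and Syt1 and the higher ones by Syt4, while adhesion genes went both ways, with 3 higher and 3 lower of 8. Against GNPs, 4 of the 36 were higher, 9 lower and 23 not called, where 18.5% of all genes tested were higher, 31.4% lower and 49.8% either, and the median was -0.33 over the 36 genes and -0.08 over all genes. With these groups alone 8 were higher (23.6% of all genes) and 19 lower (35.4%, with 59.1% either way). The fit of all groups shares each gene's variance with the widely spread NEP arrays. Stmn2 (-0.78), Ina (-0.54) and Stmn4 (0.67) had limma adjusted p of 0.411, 0.298 and 0.249 there. With these groups alone they had 2.09e-05, 0.00126 and 0.000193. Nefl read 3.22, 3.07, 2.99 and 2.95 on GNP tumor arrays, against 7.57, 7.03, 7.2 and 7.71 on GNP arrays, with no overlap (-4.32 ± 0.4, adjusted p = 1.17e-07). Syt1 read 4.4 to 4.49, against 8.05 to 8.41 (-3.73 ± 0.23, 7.24e-10). L1cam (-2.85 ± 0.46, 7.63e-05), Nefm (-2.32 ± 0.27, 2.3e-06) and Cntn1 (-2.26 ± 0.18, 2.97e-08) followed. Syt4 was the most raised, at 7.74, 7.49, 7.61 and 7.6 on GNP tumor arrays, against 4.29, 4.4, 4.43 and 4.6 on GNP arrays (3.18 ± 0.13, 7.57e-12). Chl1 was higher by 1.59 ± 0.16 (3.72e-07), Nlgn1 by 1.35 ± 0.19 (2e-05) and Ncam1 by 0.5 ± 0.082 (7.64e-05). Nrxn3 (-0.8, adjusted p = 0.0229) lost its call without GNP array 3 (0.0509) or 4 (0.0666) or GNP tumor array 2 (0.0518) or 3 (0.0589), and Syt11 (-0.26, 0.0212) without GNP array 2 (0.0537) or GNP tumor array 1 (0.0569) or 4 (0.0519). Syn1 (-0.48, 0.0804) was called without GNP array 1 (0.0433). Microglia markers moved with this comparison, with 7 of 9 tested higher in GNP tumors (sums of 9.03 to 9.21, against 5.27 to 5.37 in GNPs). Of 9 tested astrocyte markers 8 were higher and 1 lower (11.3 to 11.37, against 10.27 to 10.4). Of 10 stem and radial glia markers 8 were higher and 2 lower. Higher too were 5 of 8 tested oligodendrocyte lineage, 5 of 10 pericyte and 1 of 9 tested endothelial markers. Lower were 2 of 5 tested GABAergic and Purkinje and 1 of 10 granule progenitor markers. The part of these cell types was not tested.

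**Figure D5:**
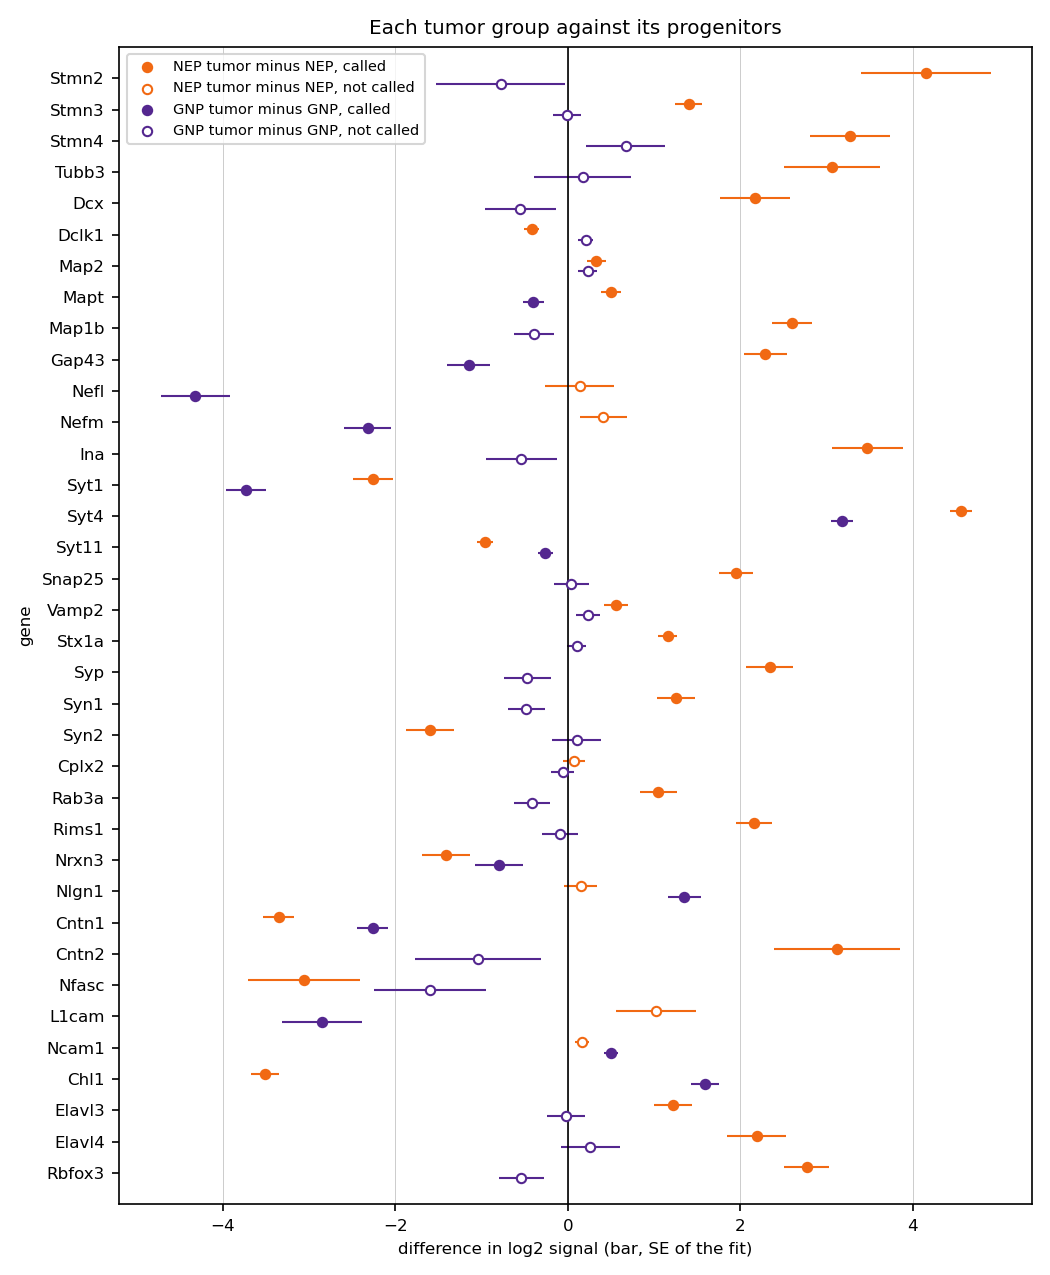
Difference in log2 signal for each gene, NEP tumor minus NEP and GNP tumor minus GNP, with the SE of the limma fit; filled points passed an adjusted p of 0.05. Syt4 lies to the right and Syt1 and Cntn1 to the left in both, while Stmn2, Stmn4, Tubb3 and Ina lie beyond 3 with filled points for NEP tumors and within 1 of 0 with open points for GNP tumors. The fit shares each gene's variance with the widely spread NEP arrays. With GNP tumor and GNP arrays alone, Stmn2 and Ina were called lower and Stmn4 higher, and Tubb3 was not called.

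The lineage difference itself differed between tumors and progenitors. The difference between NEP tumors and GNP tumors, minus that between NEPs and GNPs, was above 0 for 24 of the 36 genes, below for 7 and not called for 5 (limma interaction, adjusted p below 0.05), where 36.7% of all genes tested were above 0, 25.2% below and 61.9% either. The median was 1.47 over the 36 genes and 0.15 over all genes. Any offset shared by the 2 groups of a title set drops out of this term. With all 4 NEP arrays it was largest for Stmn2 (4.93 ± 1.1, adjusted p = 0.000754), for which NEP tumors were 0.42 above GNP tumors and NEPs 4.51 below GNPs. Nefl (4.47), Cntn2 (4.16), Ina (4.01) and L1cam (3.87) followed. It was most negative for Chl1, at -5.1, where NEP tumors were 0.8 above GNP tumors and NEPs 5.9 above GNPs. Syn2 (-1.7), Nlgn1 (-1.19), Cntn1 (-1.09), Syt11 (-0.7), Dclk1 (-0.63) and Ncam1 (-0.35) were the other genes below 0. Nfasc (-1.46) was not called, and was without NEP array 3 (-2.06, adjusted p = 0.0367) or 4 (-2.08, 0.033). With NEP arrays 3 and 4 alone the counts were 24 above 0 and 8 below, where 56.8% of all genes tested were called. In that setting Nefl (3.69) stood above Ina (2.97), L1cam (2.85), Gap43 (2.84) and Stmn2 (2.8), and Chl1 (-5.18) was still the most negative. Markers of other cells moved in this term too, with all 4 NEP arrays. Below 0 were 9 of 9 tested astrocyte, 8 of 9 tested microglia, 9 of 10 pericyte and 8 of 9 tested endothelial markers. So were 8 of 10 stem and radial glia and 7 of 8 tested oligodendrocyte lineage markers, with 1 of the latter above 0. Of 10 granule progenitor markers 8 were above 0. Their part was not tested.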

How the data were processed

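RNA (100 ng, Trizol) was prepared for the arrays with the Ambion WT kit and WT terminal labelling, per the labels' protocols. The authors deposited log2 values of 45101 probe sets, and the submitters' processing notes name RMA and Affymetrix Expression Console. The log base is not given in the sources used here. Hybridisation controls at 100 and 1.5 pM differed by 5.64 on average (5.29 to 6.16), where log2 would give 6.06, natural log 4.2 and log10 1.82, so log2 was used. Each array's mean was 3.785, so arrays had been put on a common centre by a step not given in the sources used here. Array number limits the precision. No 2 of the arrays held identical values.

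Genes came from the platform annotation: 34945 probe sets had 1 symbol, 932 several, 9160 none, besides 64 controls. Each of 18193 genes took its probe set with the highest mean, and 12148 at or above the array median in at least 3 arrays were tested with limma 3.58.1 (R 4.3.3), all 5 groups in 1 fit, two-sided, Benjamini-Hochberg adjusted over all 12148, called below 0.05. The fit was tested on simulated data. "Under the array median" describes a group mean below the mean of its arrays' medians.

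The genes, their roles, the 4 lists of further pathway genes and the 8 marker lists were chosen with earlier results of these data known. Genes given in full were, per comparison, the 5 called with the largest difference in each direction, called genes against the main direction, and the 6 whose NEP array pairs lay farthest apart. Of each further list the 3 largest called differences in each direction were named for NEPs against GNPs and between the tumors, and of each marker list the brightest gene. Alternatives were the mean of all probe sets, other filters, a second quantile normalization, an intensity trend, only the groups compared, a replicate block, NEP arrays 3 and 4 alone, and leaving out each array. Promoters came from RefSeq (GRCm38.p6), and protein sequences were not used here.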

Additional observations from a re-analysis of the deposited data

Results flagged for a closer look

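In 3 of the 144 sets of 4 arrays examined, 1 array stood far from the other 3 by Dixon's test, where chance gives about 1 in 20. Dclk1 read 11.04 on NEP array 4 and 10.66 to 10.68 on the others. Nefm read 6.44 on GNP array 2 and 6.97 to 7.08 on the others. Vamp2 read 5.6 on NEP array 1 and 6.21 to 6.31 on the others.

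For 31 genes the lineage difference in tumors (NEP tumor minus GNP tumor) differed from that in progenitors (NEP minus GNP) by limma's interaction term. It was above 0 in the cytoskeleton for Stmn2 (4.93), Gap43 (3.44), Map1b (2.99), Tubb3 (2.89), Dcx (2.72), Stmn4 (2.6), Stmn3 (1.41) and Mapt (0.9), and in the neurofilament group for Nefl (4.47), Ina (4.01) and Nefm (2.73). It was above 0 among release genes for Syp (2.81), Rims1 (2.25), Snap25 (1.9), Syn1 (1.73), Rab3a (1.47), Syt1 (1.46), Syt4 (1.38) and Stx1a (1.06). It was above 0 for the adhesion genes Cntn2 (4.16) and L1cam (3.87) and the RNA-binding proteins Rbfox3 (3.31), Elavl4 (1.93) and Elavl3 (1.23). It was below 0 for Chl1 (-5.1), Syn2 (-1.7), Nlgn1 (-1.19), Cntn1 (-1.09), Syt11 (-0.7), Dclk1 (-0.63) and Ncam1 (-0.35).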

How the results depend on the processing

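Of the values of single genes under the alternatives, 3910 kept their direction and their side of the threshold, 86 lost and 118 gained a call and 5 reversed, and among the 3910 are 60 of genes called in neither setting whose sign turned. With only the groups compared, 30 genes were higher in GNPs than in NSCs, 7 were higher and 7 lower in NEP tumors than in GNP tumors, and 8 were higher and 19 lower in GNP tumors than in GNPs. With the mean of all probe sets, 2 were lower in GNPs than in NSCs, 7 higher and 2 lower in NEP tumors than in GNP tumors, and 15 lower in GNP tumors than in GNPs. That mean also reversed Syt1 in NEPs against NSCs (-0.03), Ncam1 in GNPs against NSCs (-0.3) and in NEP tumors against NEPs (-0.13), and Dclk1 in the interaction (0.03). With NEP arrays 3 and 4 alone the median against NSCs was -0.44, and Syt1 against GNPs was 0.01. With NEP tumor arrays 3 and 4 alone, chosen after seeing the data, 5 genes were higher and 1 lower than in GNP tumors, with a median of 0.22. The cause was not tested.

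Leaving out single arrays gave 3 to 4 genes higher and 0 to 3 lower in NEP tumors than in GNP tumors, with a median of -0.07 to 0.11, the lowest without NEP tumor array 3 and 0 lower genes without GNP tumor array 3. The other comparisons kept their counts within 1.5 times. The stricter filter left 33 of the 36 genes.

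Same-numbered arrays did not deviate together (correlations of -0.18 to 0.12, and 3 of 16 arrays correlated best with their own number), so the numbers are not taken as pairing. A replicate block with only the groups compared gave 7 higher and 7 lower in NEP tumors than in GNP tumors, 8 higher and 19 lower in GNP tumors than in GNPs, and 6 higher and 24 lower in NEPs than in GNPs.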

Other observations

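In NEP tumors, 14 of 23 regulators of neuronal genes were higher than in NEPs and 4 lower, 78.3% called, against 68.9% of all genes tested. The genes named here were chosen after their values were seen. Neurod6 averaged 8.87 in NEP tumors and 2.95 in NEPs. Rest averaged 2.79 in NEP tumors and 6.21 in NEPs, and Neurog2 averaged 1.74 in NEP tumors, under the array median, and 8.13 in NEPs. In GNP tumors, 4 of 23 were higher than in GNPs and 7 lower, 47.8% called, near the 49.8% of all genes tested. Neurod2 averaged 3.43 in GNP tumors and 6.81 in GNPs. Of 27 further release genes, 4 were higher and 14 lower in GNP tumors than in GNPs (66.7% called). In NEP tumors 15 were higher and 4 lower than in NEPs (70.4% called, near the 68.9% of all genes).

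Probe sets of 1 gene did not always move together. For Ncam1 in GNPs against NSCs, the probe set used was higher by 0.59, while 2 others differed by -0.93 and -1.52. For Cplx2 in the same comparison the probe set used was higher by 0.64, and another differed by -0.41.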
